A study of Mus musculus with 454 samples.

Results

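Gpr65-positive neurons of the mouse nodose ganglion were 47.1% of the picked cells that carried a Gast or an Int target code, 34 cells with a Gast code and 95 with an Int code, against 71 Gast and 74 Int cells that were Gpr65-negative. The nodose ganglion is the sensory ganglion of the vagus nerve, and its neurons link the inner organs with the brainstem. The measured reads of Gpr65 chose the members: a cell was Gpr65-positive with 10 or more reads of Gpr65 and Gpr65-negative with fewer, and every coded cell had at least 2000 genes with reads above 0. The series holds 454 samples from wild type C57BL/6 mice, namely 1 droplet (10x Genomics) library from mice aged 6 weeks and single picked cells, each a Smart-seq2 library, from mice aged 8 to 12 weeks. Header lines of the read table give each picked cell a mouse and a target code, and the sources used here do not say what the codes stand for or how the cells were picked.

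The side called Gast joined the codes GastG (18 Gpr65-positive of 60 cells, from 5 mice) and GastP (16 of 45 cells, 3 mice). The side called Int joined IntP (33 of 45 cells, 4 mice), IntM (21 of 45, 3 mice), IntD (22 of 35, 3 mice) and IntL (19 of 44, 3 mice). No treatment or allele is named for any of these mice. Each mouse carried a single code, so the mouse was the replicate: the level of a gene is the mean over a mouse's Gpr65-positive cells of log2(CPM + 1), with CPM the reads of the gene per 1000000 reads of the cell. All 21 mice had at least 2 such cells (range 2 to 13), so 8 Gast mice stood against 13 Int mice.

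Gpr65 encodes a G protein-coupled receptor that is activated by extracellular protons and raises cyclic AMP through Gs. In the vagus nerve, Gpr65 neurons are known for endings in the villi of the small intestine and for responses to the chemical content of the gut lumen. Edn3 encodes the peptide endothelin 3 and Sst the peptide somatostatin, which mark subsets of vagal neurons. Serotonin released by enterochromaffin cells of the gut lining reaches vagal endings through ion channels built from the subunits encoded by Htr3a and Htr3b.

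The cells were neurons by their markers. All 34 Gast and all 95 Int members had 10 or more reads of Slc17a6 (the vesicular glutamate transporter VGLUT2) and Snap25 (a synaptic protein), and 1 cell on each side had Prdm12, which marks neural crest-derived jugular neurons. Median depth was 1472137 reads in positive and 1522412 in negative cells, with 11481 and 11320 genes. GastG mouse 41, with 3 Gpr65-positive cells, stood apart from the other Gast mice in several of the genes below, and values without it are given where they change a call. All Int mice are numbered up to 39, while 4 of the 8 Gast mice are numbered from 41 up.

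The level of Gpr65 itself differed between the sides and is given as a description only. Positive cells had 11 to 1188 reads on the Gast side, with a median of 72.5, and 13 to 1964 on the Int side. Of the 34 Gast cells, 9 had 200 or more reads of Gpr65, against 70 of the 95 Int cells. At the limit of 10 reads, 20 members had fewer than 50 reads, while the highest non-member had 8 reads, and 49 of 71 Gast and 39 of 74 Int negative cells had none. In mean log2(CPM + 1) Gpr65 ranged from 4.50 to 8.33 over Gast mice, the highest being mouse 41, and from 6.58 to 8.87 over Int mice. Gpr65-positive cells made up 32.4% of the Gast cells and 56.2% of the Int cells, with 73.3% in IntP, 62.9% in IntD, 46.7% in IntM, 43.2% in IntL, 35.6% in GastP and 30% in GastG.

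Against Gpr65-negative neurons of the same mice, Gpr65-positive neurons had the highest differences for Chrnb3, Olfm3, Dcdc2a and Gabrg1 and the lowest for Rab3c, Kcns3 and Kcnk3, among genes with 1 sign in every mouse. Since reads of Gpr65 chose the cells, these differences are a description and were not tested. In 19 mice with at least 2 cells of each kind, 1.01% of 11697 genes were higher in positive cells in every mouse, and 69 (0.59%) were lower in every mouse. The highest was Chrnb3, a nicotinic acetylcholine receptor subunit, with a median per-mouse difference of 4.74 (log2). It had 10 or more reads in 89.9% of positive and 31.7% of negative cells. Olfm3, a secreted olfactomedin, followed at 4.03, Dcdc2a, a doublecortin domain protein, at 3.64, and Gabrg1, a GABA-A receptor subunit, at 3.49. Lrrn1, a leucine-rich repeat membrane protein, stood at 3.32, Kcnk18, the two-pore potassium channel TRESK, at 3.26 and Synpr, the synaptic vesicle protein synaptoporin, at 3.01. These genes were not confined to members, since Lrrn1 had 10 or more reads in 76.6% of negative cells.

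Galc, which encodes the lysosomal enzyme galactosylceramidase, was also 3.32 higher in members and had 10 or more reads in 93% of positive against 25.5% of negative cells. It is the neighbour of Gpr65 on chromosome 12 of GRCm38 (mm10): Galc spans 98202294 to 98259459 on the minus strand and Gpr65 98268635 to 98276644 on the plus strand, with 9175 bases between them. The neighbourhood was looked up after the values were seen.

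The gene lowest in members against negative cells was Rab3c, a small GTPase of secretory vesicles, with a median per-mouse difference of -5.35 and 10 or more reads in 37.2% of positive against 93.8% of negative cells. Kcns3, a modifier subunit of voltage-gated potassium channels, stood at -3.79, and Kcnk3, the acid-sensitive potassium channel TASK-1, at -3.69, with 10.9% of positive and 70.3% of negative cells at 10 or more reads. The others were Zcchc12 (-3.41), the synaptotagmin Syt16 (-3.24), Itm2a (-3.12), the growth factor receptor Fgfr1 (-2.80) and Tmem176a (-2.74). Both marker peptides leaned to the positive cells without one sign in every mouse: Sst was higher in 17 of 19 mice (median 1.77) and Edn3 in 14 (median 1.11).

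**Figure D1:**
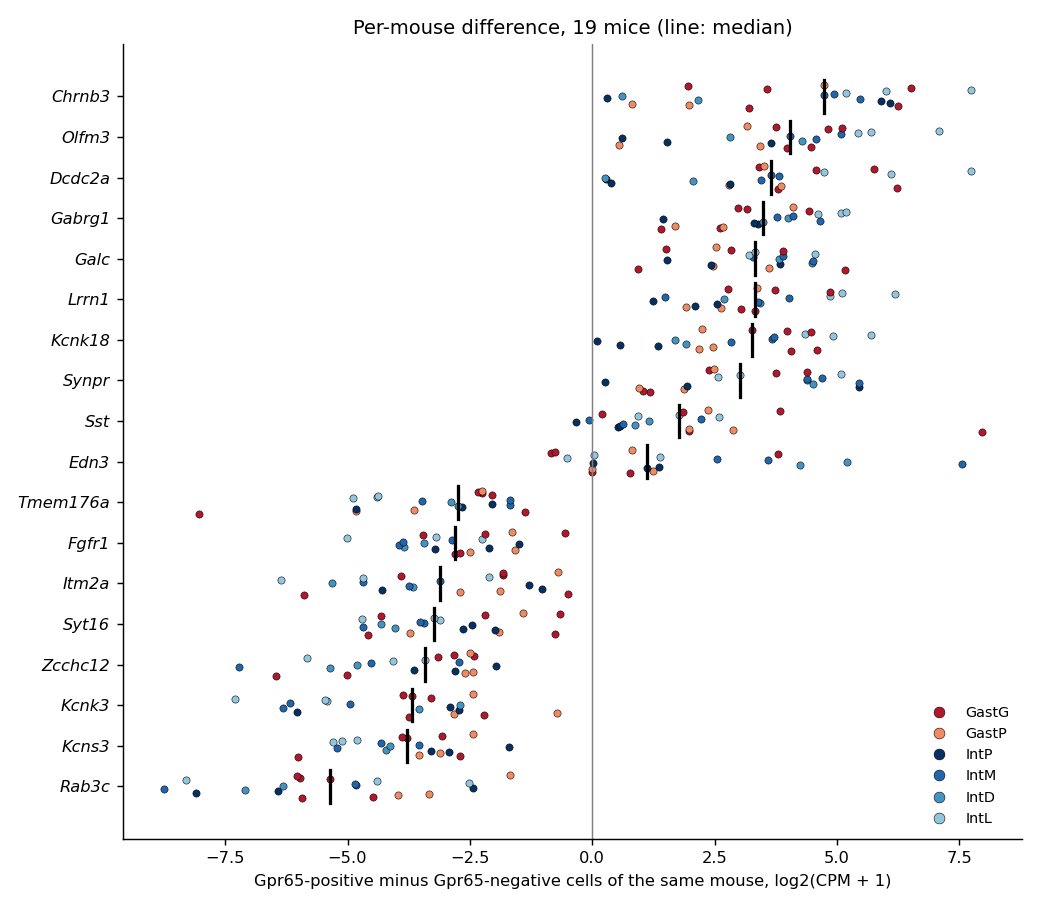
Difference between Gpr65-positive and Gpr65-negative cells of the same mouse in log2(CPM + 1), horizontal axis, for 18 genes, with 1 point per mouse coloured by target code and a line at the median of 19 mice. The 8 genes at the top lie above 0 and the 8 at the bottom below 0 in every mouse, as the rule that named them requires, while Sst and Edn3 have mice on both sides of 0.

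The 10x library gave a similar contrast, with a stricter limit for negative cells, in neurons that were not picked by target. Neurons, taken as barcodes with a unique molecular identifier (UMI) of both Snap25 and Slc17a6, were 1087 of 1108 barcodes, so this rule left out 21, and free RNA can supply such a UMI. No doublet caller was run, and the part of doublets in these values was not tested. Of the neurons 81 (7.45%, exact Clopper-Pearson 95% interval 5.96 to 9.18) had 5 or more UMIs of Gpr65. They were set against 911 neurons with 0 UMIs of Gpr65, and 95 neurons (8.74%) with 1 to 4 UMIs were in neither group. Negative picked cells, by contrast, had up to 8 reads of Gpr65. The median depth was 106125 UMIs in the 81 neurons and 52953 in the 911, and there was 1 library, so intervals cover counting error only. All 18 genes above pointed the same way in UMIs scaled to the total. Galc was 15.1-fold higher (13.5 to 16.8), Kcnk18 5.05-fold (4.39 to 5.82) and Chrnb3 3.98-fold (3.61 to 4.39), while Synpr was 1.12-fold higher (1.06 to 1.19). Rab3c was at 0.0511 times (0.0429 to 0.0603) and Kcnk3 at 0.0352 times (0.0275 to 0.0444) the level of the 911 neurons. Edn3 was 24-fold (19.8 to 29.2) and Sst 23.8-fold (20.9 to 27.3) higher.

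Per mouse, more members held Sst on the Gast side than on the Int side, while the difference for Edn3 did not pass the test. Among the 34 Gast members 16 had 10 or more reads of Sst alone, 3 of Edn3 alone, 1 of both and 14 of neither. Among the 95 Int members 8 had Sst alone, 32 Edn3 alone, 5 both and 50 neither. Of the Gpr65-negative cells 4 had Sst (2.76%) and 8 had Edn3 (5.52%). Pooled over mice, 66.7% of IntM and 63.6% of IntD members had Edn3, against 21.2% in IntP, 10.5% in IntL, 16.7% in GastG and 6.25% in GastP. The mice of a code differed, with IntM mice 15, 20 and 26 at 100% (9 of 9 cells), 50% and 25%. IntD mice 14, 18 and 19 were at 63.6%, 71.4% and 50%. IntM mouse 26 lay below IntP mice 16 (28.6%) and 17 (33.3%), and GastG mouse 41 was at 66.7%.

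Per mouse, the share of members with Sst ran from 0% to 100% on the Gast side (median 55) and from 0% to 50% on the Int side (median 14.3). The sides overlapped, with 7 of 8 Gast mice above the Int median and mouse 41 at 0%. The mean was 50.2% ± 29.8 (SD, n = 8) against 15.3% ± 12.5 (SD, n = 13), a difference of 35 percentage points (exact two-sided permutation test over mice, p = 0.00229, adjusted over the 2 genes 0.00458). The share with Edn3 ran from 0% to 66.7% on the Gast side (median 0) and from 0% to 100% on the Int side (median 28.6). Its means were 16.7% ± 26.7 (SD, n = 8) and 37.4% ± 28.2 (SD, n = 13), a difference of -20.8 points that did not pass (exact permutation test, adjusted p = 0.108). Without mouse 41, at 66.7%, the Edn3 difference was -27.9 points (exact permutation test, adjusted p = 0.0233).

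The Sst difference rested on cells with few reads of Gpr65. With 50 or more reads of Gpr65 required, it was 6.82 points (exact permutation test, adjusted p = 0.408), and with Sst counted from 1 read it was 18.2 points (adjusted p = 0.0795). As a level, Sst was 2.06 ± 0.59 (SE) higher in Gast mice (limma, adjusted p = 0.0202), 0.83 with 50 or more reads of Gpr65 (adjusted p = 0.374) and -0.58 with 200 or more (adjusted p = 0.589). In the 25 Gast and 25 Int members with under 200 reads of Gpr65, 15 and 3 had 10 or more reads of Sst. Edn3 as a level was -1.90 ± 0.79 (limma, adjusted p = 0.114), and -2.34 without mouse 41 (adjusted p = 0.0392). Of those 25 and 25 cells 2 and 1 had Edn3, against 2 of 9 Gast and 36 of 70 Int members with 200 or more reads.

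**Figure D2:**
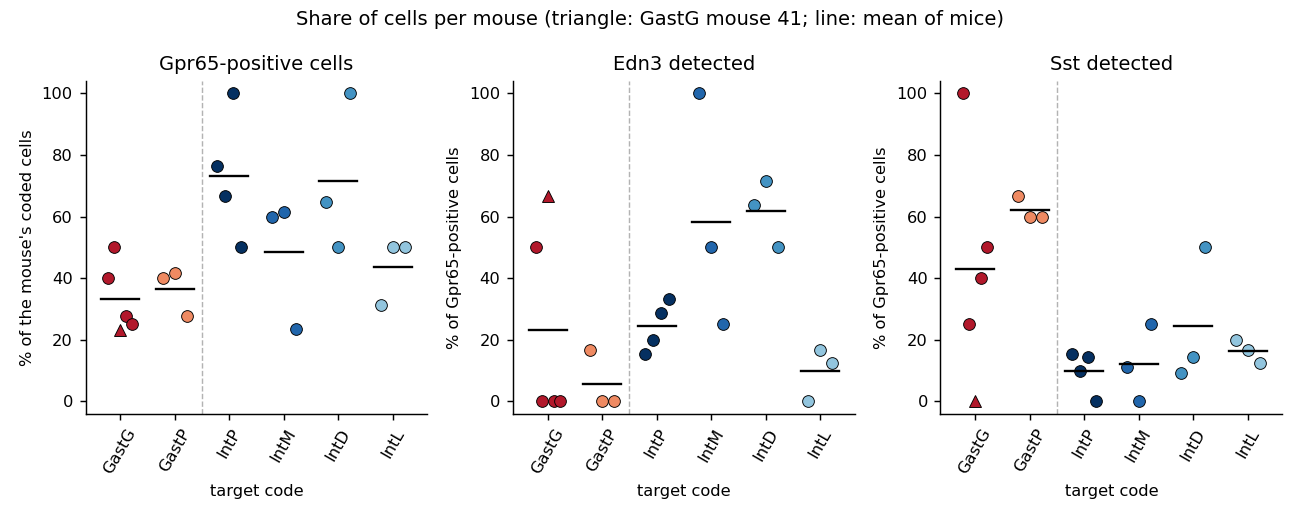
Percent of cells per mouse, vertical axis, by target code: Gpr65-positive cells among all coded cells, and Gpr65-positive cells with 10 or more reads of Edn3 or of Sst. Each point is a mouse, the line is the mean of the mice of a code, and the triangle is GastG mouse 41, which is the highest Gast mouse for Edn3 (66.7%) and the lowest for Sst (0%).

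In the 10x library the 2 peptides were also counted among the 81 Gpr65-positive neurons. Sst had 5 or more UMIs in 11 of them (13.6%, exact Clopper-Pearson interval 6.98 to 23) and Edn3 in 24 (29.6%, 20 to 40.8). No neuron had both: a count of 0 of 81 allows a share of up to 3.70% by the limit of 3 counts, and the exact interval reaches 4.45%. Among the 911 neurons without Gpr65, 6 had Sst (0.659%) and 5 had Edn3 (0.549%) at that level.

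The comparison of Gast with Int members asked how neurons that share Gpr65 differ by target code. Of 11298 genes tested, 871 were higher in Gast members (7.71%) and 660 lower (5.84%), 13.6% in all (limma with an intensity trend on mouse means, Benjamini-Hochberg adjusted p under 0.05, Gpr65 left out). Differences are on the log2(CPM + 1) scale, which understates the change of low genes. Of the genes named, Htr3a, Chrna3 and Htr3b had the lowest differences and Ctxn3, Adam11 and S100a6 the highest. For 37 genes (0.327%) the 8 Gast and 13 Int mice did not overlap, with all Gast mice above all Int mice for 16 (0.142%) and below for 21 (0.186%). Pou4f1, a homeodomain factor of sensory neurons, was among them at 6.07 to 7.21 in Gast and 4.38 to 5.83 in Int mice (1.52 ± 0.20 SE, adjusted p = 2.46e-05). Gpc5, a heparan sulfate proteoglycan of the cell surface, was another, at 2.89 to 4.45 against 0 to 2.54 (3.0 ± 0.29, adjusted p = 1.78e-06).

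**Figure D3:**
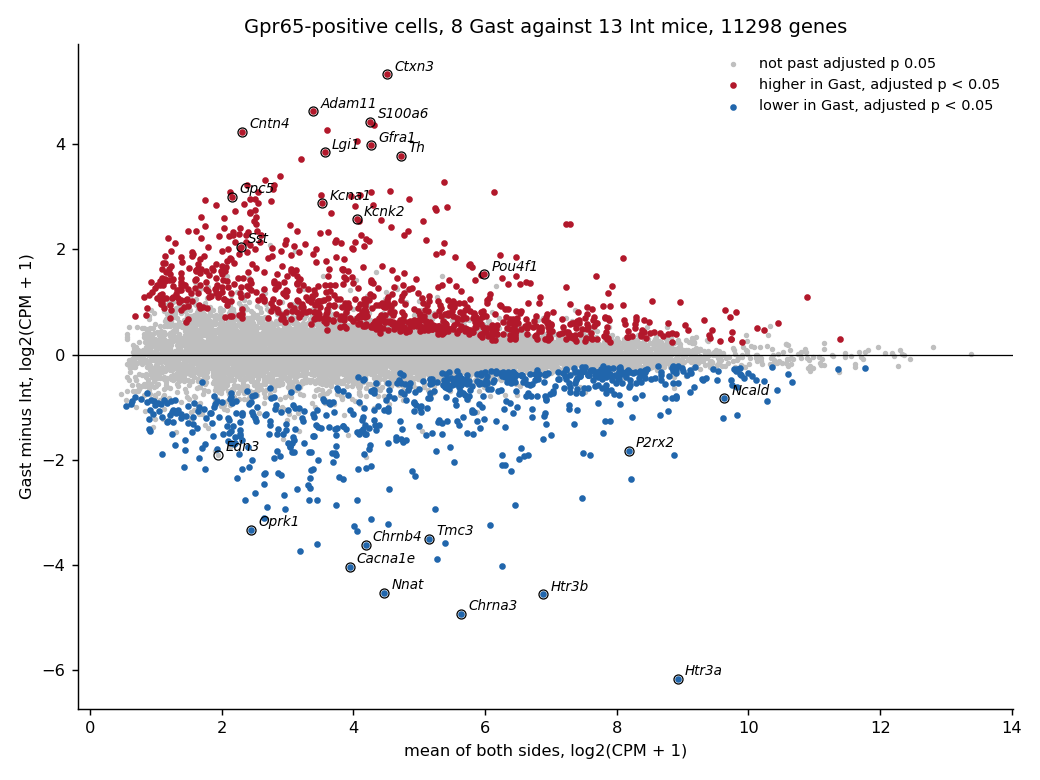
Each of 11298 genes in Gpr65-positive cells by its mean level over both sides (horizontal axis) and its difference Gast minus Int (vertical axis), both in log2(CPM + 1), with genes past an adjusted p of 0.05 in red (871 higher) and blue (660 lower). Htr3a lies lowest at -6.16 and Ctxn3 highest at 5.33, and Edn3 is an open circle on grey because it did not pass.

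Both subunits of serotonin-gated channels fell, and Htr3a had the lowest difference on the log2(CPM + 1) scale. Htr3a, the subunit that every such channel needs, had a lowest, median and highest level of 2.26, 5.97 and 9.91 in Gast mice and of 9.30, 12.4 and 13 in Int mice. All 8 Gast mice were below the Int median, and mouse 41 alone reached into the Int range. The difference was -6.16 ± 0.68 (SE, limma, adjusted p = 3.87e-06). Its partner subunit Htr3b ran over 2.30, 4.19 and 8.61 in Gast and 7.08, 9.49 and 9.87 in Int mice, a difference of -4.55 ± 0.55 (adjusted p = 1.04e-05). Mouse 41 was again the only Gast mouse within the Int range, and IntL mouse 39 was the lowest Int mouse for both subunits.

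Within the Gast side, members spread over the whole range of Htr3a. With read bins chosen after the values were seen, 8 of the 34 Gast members, from 6 mice, had 1000 or more reads of Htr3a, 5 had from 100 up to 1000, 10 had from 10 up to 100 and 11 had fewer than 10. On the Int side 90 of 95 members had 1000 or more. Of the 17 Gast members with Sst, 16 lay under 1000 reads of Htr3a, and of the 4 with Edn3, 3 lay at or above it. None of the 8 Gast members at 1000 or more reads of Htr3a had 1000 or more of Ctxn3, a gene described below. Only 8 of the 34 Gast members reached 1000 reads of Ctxn3, while 21 had from 100 up to 1000, and this overlap was not tested. The size of the gap depended on the summary, since a sum of reads gives more weight to cells with many reads. On reads summed per mouse edgeR gave Htr3a a difference of -1.91 (adjusted p = 0.0778) and DESeq2 one of -1.91 (adjusted p = 0.0387). For Htr3b edgeR gave -1.85 (adjusted p = 0.011) and DESeq2 -2.07 (adjusted p = 9.8e-05).

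Subunits of nicotinic acetylcholine receptors also fell. Chrna3, the main ligand-binding subunit of ganglionic nicotinic receptors, ran over 0.94, 2.56 and 6.45 in Gast mice and 5.03, 8.42 and 9.10 in Int mice. Of the 34 Gast members 10 had 10 or more reads, against 91 of the 95 Int members, and mice 8 and 41 were the Gast mice within the Int range. The difference was -4.93 ± 0.55 (limma, adjusted p = 3.87e-06). Its partner subunit Chrnb4 was at 0, 2.06 and 4.66 against 3.16, 6.22 and 7.54 (-3.61 ± 0.53, adjusted p = 5.80e-05), and the accessory subunit Chrna5, named after its values were seen, fell by 2.67 (SE 0.40, adjusted p = 6.28e-05). On summed reads edgeR gave -1.53 for Chrna3 (adjusted p = 0.0336) and -1.02 for Chrnb4 (adjusted p = 0.197). Chrna6 and Chrnb2 did not pass, at -0.27 and 0.27, and Chrnb3, the highest gene of the members as a whole, was 0.85 ± 0.45 (adjusted p = 0.237). Here and below, genes given as not passing were named after their values were seen.

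The 3 fallen nicotinic genes are neighbours on chromosome 9 (GRCm38): Chrna5 spans 54980880 to 55007779 on the plus strand, Chrna3 55010111 to 55026562 and Chrnb4 55028154 to 55048779 on the minus strand, with gaps of 2331 and 1591 bases. Htr3a (48899213 to 48911099) and Htr3b (48935008 to 48964990) lie on the same chromosome, both on the minus strand and 23908 bases apart. The 120 bases before the RefSeq start (GRCm38.p6, from the promoter table, the first of 2 starts for Chrna5) are shown for the genes of these clusters that the table holds, because the genes of each cluster moved together. Capitals mark a GC box, and the lines read 5′ to 3′ on the gene's strand.
Chrna5, chr9:54980760-54980879, plus strand: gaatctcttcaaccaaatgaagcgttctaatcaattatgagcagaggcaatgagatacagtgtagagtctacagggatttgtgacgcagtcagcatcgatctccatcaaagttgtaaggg
Chrna3, chr9:55026563-55026682, minus strand: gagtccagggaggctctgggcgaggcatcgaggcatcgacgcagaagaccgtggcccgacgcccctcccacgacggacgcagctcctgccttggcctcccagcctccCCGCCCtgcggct
Chrnb4, chr9:55048545-55048664, minus strand: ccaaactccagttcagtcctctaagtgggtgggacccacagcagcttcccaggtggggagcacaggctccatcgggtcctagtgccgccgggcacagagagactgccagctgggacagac
Htr3b, chr9:48964991-48965110, minus strand: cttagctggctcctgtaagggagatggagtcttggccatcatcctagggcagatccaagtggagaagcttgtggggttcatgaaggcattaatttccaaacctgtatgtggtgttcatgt

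A search of both strands for the GC box GGGCGG found 1 match among these 4 windows, in Chrna3, and 26.5% of 32851 RefSeq windows of this length hold one. The T-box core site TCACACC, searched because the T-box factor gene Tbx3 fell with these genes, had no match in the 4 windows and is in 1.49% of all windows. The windows and motifs were chosen after the values were seen, and a match is a description of letters only.

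**Figure D4:**
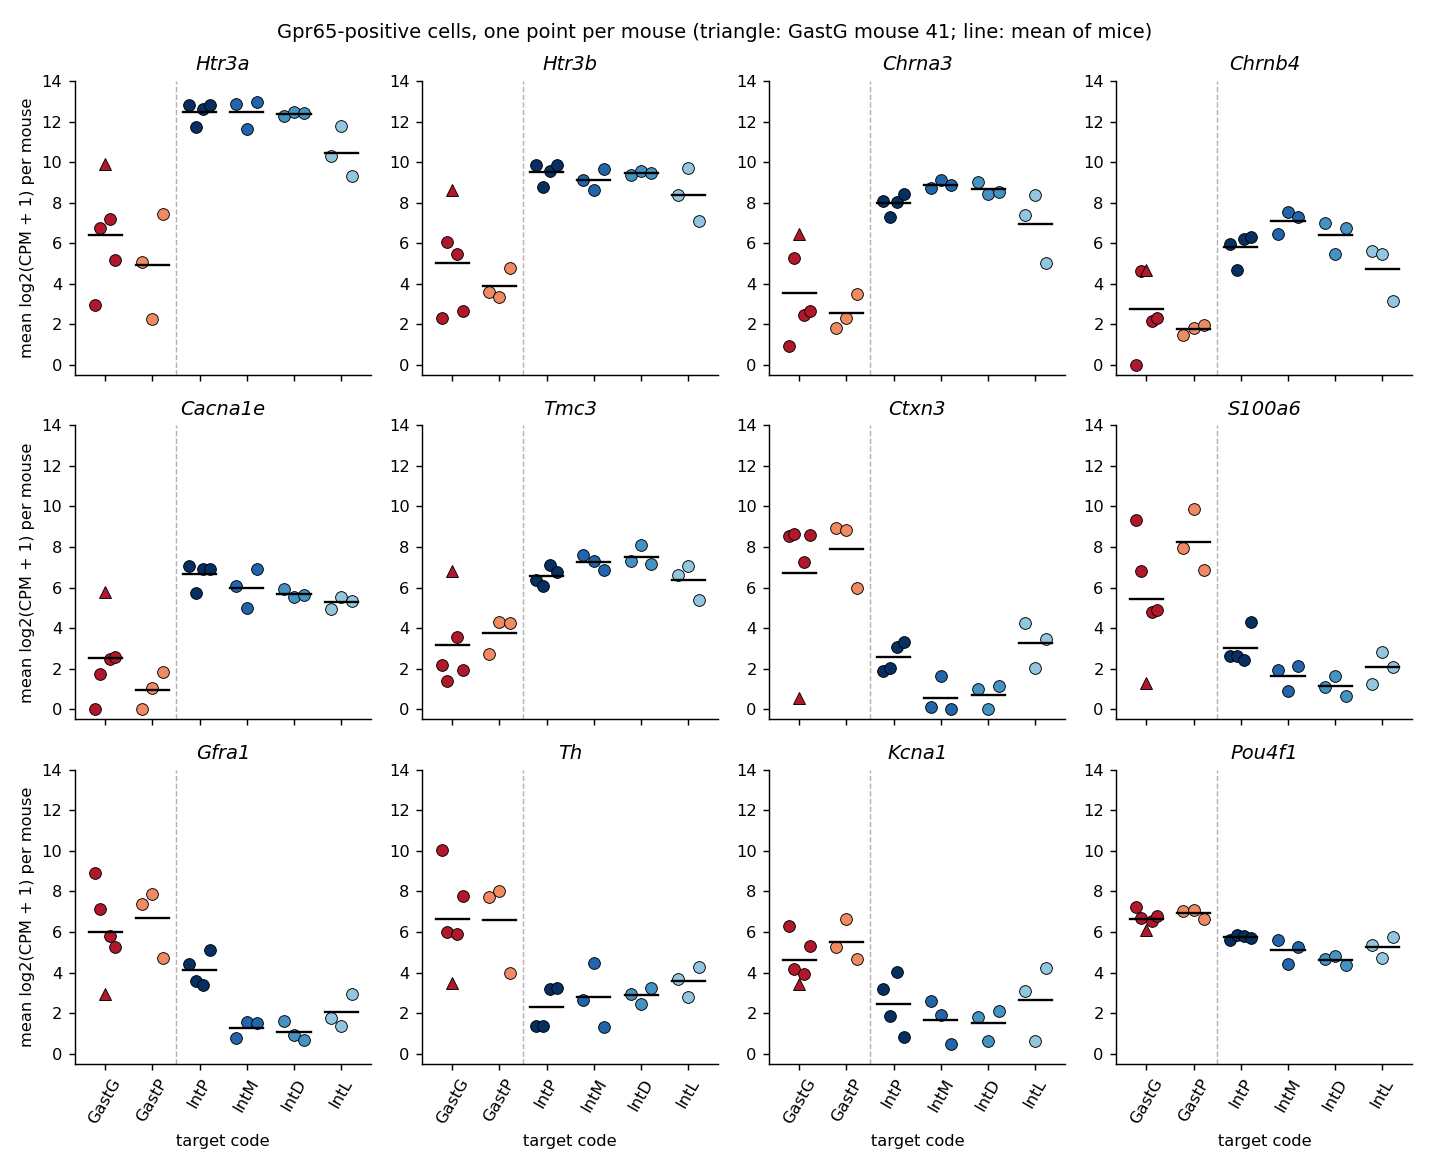
Mean log2(CPM + 1) of 12 genes in the Gpr65-positive cells of each mouse (vertical axis, same scale in every panel) by target code, with a line at the mean of a code's mice and a triangle for GastG mouse 41. Htr3a, Htr3b, Chrna3, Chrnb4, Cacna1e and Tmc3 lie lower in Gast than in Int mice apart from mouse 41 and, for Chrna3 and Chrnb4, mouse 8; mouse 41 also lies within the Int range for Ctxn3, S100a6, Gfra1 and Th, and all Gast mice lie above all Int mice for Pou4f1.

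The other genes that fell furthest had varied roles. Nnat, which encodes the endoplasmic reticulum protein neuronatin, differed by -4.52 ± 0.67 (limma, adjusted p = 6.00e-05), and Cacna1e, the pore of R-type calcium channels, by -4.04 ± 0.51 (adjusted p = 1.51e-05). Cacna1e ran over 0, 1.77 and 5.78 in Gast mice and 4.95, 5.74 and 7.06 in Int mice, and mouse 41 was the only Gast mouse inside the Int range. Nsg1, an endosomal protein of neurons, stood at -4.02 and Tmem54, a membrane protein, at -3.89, with adjusted p of 0.000708 and 2.00e-05. Mrap2, an accessory protein of melanocortin receptors, stood at -3.74 ± 0.64 (adjusted p = 0.000291) and varied among the Int codes, at 5.37 to 6.74 in the 10 mice of IntP, IntM and IntD and 1.17 to 3.79 in the 3 IntL mice.

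The genes that rose furthest included membrane, adhesion and secreted proteins of neurons. Ctxn3, which encodes cortexin 3, a small membrane protein of neurons, ran over 0.55, 8.57 and 8.95 in Gast mice and 0, 1.90 and 4.28 in Int mice. Mouse 41 was at 0.55, and the other 7 Gast mice, from 5.99 up, lay above all Int mice. The difference was 5.33 ± 0.81 (limma, adjusted p = 7.98e-05). Adam11, a member of the disintegrin family that lacks protease activity, was 4.63 ± 0.58 higher, with 10 or more reads in 31 of 34 Gast and 17 of 95 Int members. Cntn4, an axonal contactin, had such reads in 23 Gast and 4 Int members and was 4.24 ± 0.62 higher. S100a6, a calcium-binding protein, rose by 4.42, Klhdc8a, a kelch domain protein, by 4.36, Spon1, the secreted F-spondin, by 4.27 and Cyp1b1, a cytochrome P450, by 4.06. Gfra1, the co-receptor for GDNF, ran over 2.96, 6.47 and 8.89 in Gast and 0.68, 1.62 and 5.10 in Int mice and rose by 3.98 (SE 0.65, adjusted p = 0.00017). The 4 IntP mice, at 3.38 to 5.10, were the highest Int mice for Gfra1.

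The same 16 extreme genes differed between Sst subsets of the 10x library. This split was chosen after the values were seen: 11 Gpr65-positive neurons with 5 or more UMIs of Sst (median 128529 UMIs) were set against the other 70 (median 103597). All 8 genes that rose furthest in Gast members were higher in the Sst neurons, from 3.39-fold for Cyp1b1 (2.28 to 4.99) to 41-fold for S100a6 (36.9 to 45.6). All 8 that fell furthest were lower, from 0.131 times for Tmem54 (0.0926 to 0.181) to 0.380 times for Cacna1e (0.249 to 0.559). Htr3a was at 0.182 times (0.162 to 0.203). Edn3 had 1 UMI in all in the Sst neurons, at 0.00994 times the level of the others (0.000251 to 0.0556). Among the other genes named by rule, Npy2r, Il6st, P2ry2, Kcnv1, Mbp and Prx, all higher in Gast members, were not higher in the Sst neurons. Npy2r was at 0.392 times and Il6st at 0.847 times, and the interval of each of these genes includes 1. The share of all genes that go the same way was not computed, and intervals from 1 library cover counting error only.

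The lists below are read against 7.71% higher, 5.84% lower and a median difference of 0.05 for all genes tested. Among receptors for gut hormones, metabolites and serotonin, 10 of 30 listed genes were measured well enough to test, of which 4 rose and 4 fell (median of the 10 tested -0.20). Besides the serotonin channel subunits, Sstr2, a somatostatin receptor, fell by 1.89 (adjusted p = 0.00027). Ptgfr, a prostaglandin receptor, rose by 1.62 ± 0.41 (adjusted p = 0.00801), with 10 or more reads in 12 Gast and 4 Int members. Npy2r, the receptor for the gut hormone peptide YY, rose by 1.44 ± 0.37 (adjusted p = 0.00888), with such reads in 11 Gast and 3 Int members. Cckar, the cholecystokinin receptor, was 1.38 ± 0.40 higher (adjusted p = 0.0219) and lost the threshold without mouse 7, 10 or 44 (adjusted p up to 0.0605). Sstr2 and Cckar were named after their values were seen, and Glp1r was too low in members to test.

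Neuropeptide genes rose in 4 of 10 tested cases and fell in 1 (median 0.13), against 7.71% and 5.84% of all genes. Nmb, which encodes neuromedin B, ran over 2.85, 4.71 and 6.85 in Gast and 0.98, 2.55 and 4.32 in Int mice, with all 8 Gast mice above the Int median, and rose by 2.13 (SE 0.48, adjusted p = 0.0035). Of the opioid, monoamine and nicotinic receptor genes, 4 of 12 tested fell and 2 rose (median -1.03). Oprk1, the kappa opioid receptor, was the fourth to fall beside the nicotinic subunits, at -3.33 ± 0.50 (adjusted p = 7.40e-05), and was named after its values were seen.

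Trophic factor receptors rose in 3 of 13 tested cases and fell in 1 (median 0.19), against 7.71% and 5.84% of all genes. Il6st, the shared signalling subunit gp130 of the interleukin 6 family, rose by 0.96 (SE 0.24, adjusted p = 0.00858) and Lifr, which pairs with it and was named after its values were seen, rose by 0.66. Ntrk2, the receptor for brain-derived neurotrophic factor, fell by 0.54 (SE 0.12, adjusted p = 0.00331), from 8.76 to 9.72 in Int to 8.27 to 9.01 in Gast mice.

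Ion channel lists moved in both directions. Among sodium and calcium channel genes 7 of 20 rose and 4 fell (median 0.37), where all genes gave 7.71% and 5.84%. Scn7a, a sodium-sensing member of the sodium channel family, rose by 2.28 (SE 0.49, adjusted p = 0.0025), and Scn3a fell by 1.41 (SE 0.28, adjusted p = 0.00137). Scn7a varied among the Int codes. Its mean over mice was 5.31 in IntP, near GastG (5.83) and GastP (6.04), and 2.31 to 3.28 in IntM, IntD and IntL. Among potassium and HCN channels 6 of 25 rose and 3 fell (median 0.21). Kcna1, a voltage-gated potassium channel of axons, ran over 3.44, 4.96 and 6.65 in Gast and 0.46, 1.89 and 4.23 in Int mice, and rose by 2.87 (SE 0.49, adjusted p = 0.00027). Kcnv1, a silent modifier subunit, had 10 or more reads in 15 Gast members and 1 Int member, and Kcnb2 and Kcnh2 fell by 1.31 and 1.57. Of 8 tested TRP channel genes none passed in limma; Trpv1, the capsaicin receptor, stood at 1.23 ± 0.46 (adjusted p = 0.0765).

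Of the mechanosensation genes 3 of 12 tested rose and 1 fell (median -0.089), against 7.71% and 5.84% of all genes. Kcnk2, the two-pore potassium channel TREK-1, rose by 2.57 (SE 0.45, adjusted p = 0.000348), from 0.77 to 5.19 in Int to 4.37 to 6.31 in Gast mice. Tmc3, a transmembrane channel-like gene, fell by 3.50 (SE 0.47, adjusted p = 2.47e-05). Of 8 purinergic receptor genes, P2rx2, an ATP-gated channel, fell by 1.82 (SE 0.26, adjusted p = 4.02e-05), while its partner P2rx3 was level at 9.60 on both sides, and the adenosine receptor gene Adora2a rose by 1.52 (SE 0.35, adjusted p = 0.00464).

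Genes of transmitter synthesis and release rose in 4 of 15 tested cases and fell in 3 (median -0.035), against 7.71% and 5.84% of all genes. Th, which encodes tyrosine hydroxylase, the first enzyme of catecholamine synthesis, ran over 3.49, 6.86 and 10.1 in Gast and 1.31, 2.93 and 4.46 in Int mice. All 8 Gast mice were above the Int median, and mice 41 and 44 lay within the Int range. It rose by 3.78 (SE 0.62, adjusted p = 0.000174), and Slc18a2, the vesicular monoamine transporter, by 1.32 (SE 0.34, adjusted p = 0.00903). Slc18a2 averaged 5.63 in IntL mice, near the 5.7 of GastP mice, and 3.79 in IntP mice. Dbh, the next enzyme after dopamine, was at 3.15 against 4.69 and did not pass (-1.54 ± 0.80, adjusted p = 0.227). The synaptotagmin Syt5 fell by 1.26.

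Transcription factor genes rose in 4 of 23 tested cases and fell in 3 (median 0.22), against 7.71% and 5.84% of all genes. Klf5 rose by 2.01 beside Pou4f1, and Tbx3, a T-box factor, fell by 2.10 (SE 0.38, adjusted p = 0.000467). Cell adhesion and axon guidance genes rose in 6 of 20 cases and fell in 4 (median 0.15). Lgi1, a secreted ligand of the disintegrin family, rose by 3.85 (SE 0.49, adjusted p = 1.83e-05) and the ephrin receptor Epha5 by 3.22, whereas the semaphorin co-receptor Nrp2 fell by 3.36 (SE 0.45, adjusted p = 2.47e-05) and the netrin relative Ntng2 by 1.68. Of the fibre type and calcium buffer genes 2 of 10 rose, S100a6 and Thy1 (1.71), and 2 fell. Neurofilament light chain (Nefl) and peripherin (Prph) did not pass, at -0.19 and 0.03.

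Genes of the Gpr65 pathway itself mostly did not pass the test between the sides. Of 22 tested genes of proton sensing and cyclic AMP signalling 0 rose and 2 fell (limma), with a median of 0.01, against 7.71% and 5.84% of all genes. The 2 were Adcy8 and Pde4b, which fell by 1.34 (SE 0.43, adjusted p = 0.0357). Pde4b averaged 4.19 in IntP mice, near the 4.23 of GastP mice. In Gpr65-negative cells Pde4b was instead higher in Gast mice, as given below. Adcy8, an adenylyl cyclase, fell by 1.76 (SE 0.46, adjusted p = 0.0112), from 2.32 to 5.26 in Int to 0.86 to 4.76 in Gast mice. Gnas, the Gs alpha subunit, was at 11.5 against 11.7, a difference of -0.17 (adjusted p = 0.237). Activity, stress and injury genes rose in 1 of 14 cases (Gadd45a, 1.02) and fell in 1 (Ddit3, -1.40), shares near the 7.71% and 5.84% of all genes.

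Markers of other cells moved in part with the sides, and their part in the results was not tested. Of 8 satellite glia markers 0 of 8 tested passed (limma), and their summed level was 74.7 to 1992 CPM over Gast and 69.8 to 1979 CPM over Int mice. Of 6 Schwann cell markers 2 rose by the test, Mbp (1.11) and Prx (0.73), both lost when any of several single mice was left out (adjusted p up to 0.12 and 0.092), with sums of 1117 to 1967 CPM in Gast and 476.4 to 1770 CPM in Int mice. The nodose markers ran from 543.9 to 7121 CPM in Gast and 3635 to 9516 CPM in Int mice, a list that holds Htr3a, and 3 of 5 tested fell. The jugular markers ran from 237.3 to 621.2 against 172.3 to 405.2 CPM, with Isl2 higher by 0.71. Of 5 sympathetic neuron markers Th and Slc18a2 rose (86.8 to 2076 against 56.1 to 470.6 CPM), while Hand2 and Gata3 reached 10 reads in no member. Of the 2 endothelial and mural markers tested 1 passed, Kdr, which fell by 1.54, and the list summed to at most 23.5 CPM in any mouse. Kdr averaged 1.31 in IntL mice, near the 1.32 of GastG mice. Fibroblast and macrophage markers summed to 471.1 CPM in 1 Gast mouse and at most 41.8 CPM over Int mice. Red blood cell markers summed to at most 59.1 CPM.

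The number of Gpr65 reads moved with the sides, and counts fell when a higher minimum of Gpr65 reads was required. Such a minimum does not match the sides and leaves few Gast cells. The part of the Gpr65 level in the differences was not tested. With 200 or more reads required, 3 Gast mice (41, 42 and 44, with 6 cells) stood against 12 Int mice, and 1 gene was higher and 2 lower of 11082. Htr3a then differed by -1.83 (limma, adjusted p = 0.318) and Ctxn3 by 1.74 (adjusted p = 0.403). Among the 25 Gast and 25 Int members under 200 reads, pooled over mice with no test, Htr3a averaged 5.15 and 11.6, Chrna3 2.72 and 7.63, Ctxn3 8.25 and 3.22 and S100a6 7.24 and 2.82. Other genes that passed had little gap in these cells. Adcy8 averaged 1.70 and 1.78, Pde4b 3.82 and 4.01, Oprm1 7.80 and 7.48 and Piezo1 5.27 and 4.91. Without the members that had Sst, in 7 Gast and 13 Int mice, the genes past the threshold came to 3.74% higher and 3.0% lower of the 11298, with Htr3a at -4.75 (adjusted p = 0.000158) and Ctxn3 at 4.94 (adjusted p = 0.00123). With every cell thinned to 100000 reads they came to 4.12% and 3.35%. Over mice numbered up to 39 alone, 4 Gast against 13 Int, 1029 genes were higher and 667 lower.

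Of the 65 genes named by rule that passed, 53 did so without any single mouse. The exceptions, with the highest adjusted p in limma when 1 mouse was left out, were Pde4b (0.0925), Scg2 (0.092), Oprm1 (0.118), Htr1d (0.113), Piezo1 (0.115), P2ry2 (0.0924), Scn1a (0.0662), Calb1 (0.101), Syt2 (0.0564), Npas1 (0.0946), Mbp (0.12) and Prx (0.092). Syt2 lost the threshold without mouse 7 and Scn1a without mouse 9 or 44, and each of the other 10 without 8 to 15 different mice. The choice of test mattered too: on reads summed per mouse 50 of the 66 named genes passed in edgeR and 51 in DESeq2.

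Gpr65-negative cells of the same mice showed part of the same differences. Over 19 mice with at least 2 cells of each kind and 11697 genes, 752 genes were higher (6.43%) and 554 lower (4.74%) in Gast among positive cells, 11.2% in all, against 1.81% higher and 1.39% lower among negative cells, 3.21% in all. Tmem54 differed by -3.85 in negative cells (limma, adjusted p = 6.00e-05), Lgi1 by 4.05 (adjusted p = 2.55e-05), Adam11 by 2.68 (adjusted p = 2.55e-05) and Chrna3 by -2.34 (adjusted p = 0.00356). Pde4b, lower in Gast members, went the other way in negative cells, at 1.75 (limma, adjusted p = 0.0139). Its positive minus negative difference differed between the sides by -3.06 ± 0.65 (SE) and did not pass (limma, adjusted p = 0.064). Htr3a stood at -3.89 in negative cells (adjusted p = 0.0507). A test of the difference itself, on each mouse's positive minus negative cells, gave Htr3a an adjusted p of 0.578, so its gap was not shown to differ between the kinds of cell.

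For 4 of 11697 genes (0.0342%) the Gast against Int difference was itself different in positive and negative cells (limma, adjusted p = 0.0264 for each), and 1193 had an unadjusted p under 0.05. Kcnk2 was higher in positive than in negative cells by 0.77 on average in 8 Gast mice and lower by 2.06 in 11 Int mice, a difference of 2.83 ± 0.46. Syt12, a synaptotagmin, differed by 1.41 ± 0.24 and Gpc5 by 1.66 ± 0.28, both higher in positive cells of Gast mice. Slc7a14, a lysosomal transporter-like protein, moved the other way at -0.62 ± 0.10, and its within-mouse differences did not overlap, at -0.49 to 0.00 in Gast and 0.16 to 0.57 in Int mice.

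These 4 calls were at the edge of the threshold. None of the 4 passed without mouse 7, 9, 11, 14, 33, 34, 42 or 43, with adjusted p of 0.0504 to 0.0883, and 1 or 2 of them did not pass without mouse 8, 15, 18, 20, 26 or 44. All 4 kept their direction without any single mouse. Without mouse 41, 62 genes were higher and 39 lower, the 4 among them.

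**Figure D5:**
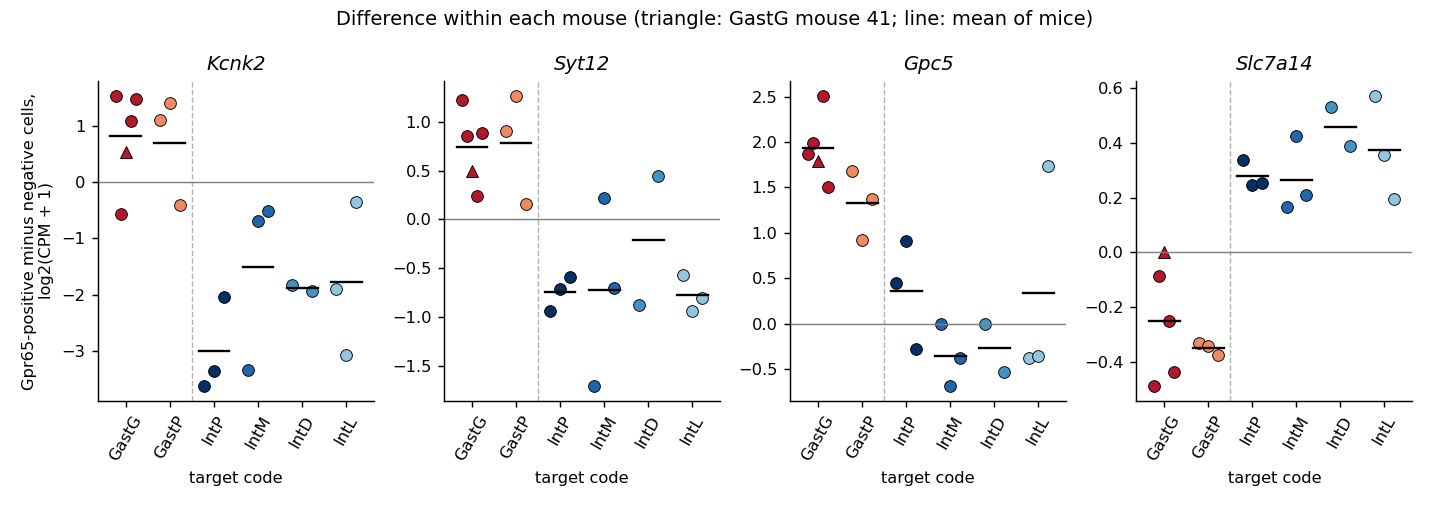
Level in Gpr65-positive minus Gpr65-negative cells of the same mouse, log2(CPM + 1) on the vertical axis with its own scale in each panel, for Kcnk2, Syt12, Gpc5 and Slc7a14 by target code, with 1 point per mouse, a line at the mean of a code and a triangle for GastG mouse 41. All 8 Gast mice lie above 0 for Syt12 and Gpc5, and the Gast and Int mice do not overlap for Slc7a14.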

How the data were processed

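The authors deposited a table of the picked cells with log2 values of reads per gene; values at its floor were read as 0 reads, and 94.1% of the values above it came out whole within 1 part in 1000. The submitters' processing notes name Cell Ranger 2.0.1 and mm10; how reads of picked cells were mapped and counted, and whether strand was used, was not stated in the sources at hand, so reads of overlapping genes cannot be told apart. The deposited 10x matrix holds UMI counts per gene and barcode, and the other 10x files list genes and barcodes (unit other, per the file headers). Smart-seq2 reads carry no molecular identifiers.

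Of 453 columns 1 has no sample of its name and was left out. Reads were scaled to CPM per cell over all genes, and log2(CPM + 1) was averaged per mouse. Genes with 10 reads in at least 10% of the cells were fitted with R 4.3.3 and limma 3.58.1 (trend on intensity) with Benjamini-Hochberg adjustment over all genes tested. Shares were compared by exact permutation over 203490 splits (scipy 1.17.1). On simulated data for Gast against Int members, 200 of 11298 genes were changed. There limma recovered 81% at a log2 change of 1 (12 unchanged genes called) and 99% at 2 (8 called). In the measured data the SD over mice differed by side. It was 2.54 in Gast and 0.26 in Int mice for Cntn4, but 1.42 and 2.29 for Syt2. How limma performs with such unequal spread was not tested. Reads rounded to whole numbers and summed per mouse were also tested with edgeR 4.0.16 and DESeq2 1.42.0. Gene positions are GENCODE M21 on GRCm38, and promoter sequences are RefSeq's.

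Members, the 23 gene lists (402 genes, 1 of them not in the table under that symbol) and tests were chosen with earlier results of these data known. The rule named Edn3 and Sst, the 8 highest and 8 lowest differences past the threshold, 2 in each direction per list, and the extremes of the other comparisons, leaving out gene models, mitochondrial and ribosomal protein genes. A result on 1 further gene is not reported here.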

Additional observations from a re-analysis of the deposited data

Results flagged for a closer look

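GastG mouse 41 lay far from the other 7 Gast mice, by Dixon's criterion for the gap of an extreme value, in 9 of 70 values examined. Genes measured in 1 mouse are not independent of each other, so this count is not set against a share given by chance. Its mean log2(CPM + 1) was high for Edn3 (4.02), Cacna1e (5.78), Tmem54 (7.56) and Mrap2 (4.86) and low for Ctxn3 (0.55), Klhdc8a (0.65), Spon1 (0.00), Cyp1b1 (1.99) and Lgi1 (2.13). It had 3 Gpr65-positive cells and the highest Gpr65 of the Gast mice.

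In 4 genes the Gast minus Int difference was not the same in Gpr65-positive and Gpr65-negative cells by a test of the difference itself: Kcnk2 (2.83), Gpc5 (1.66), Syt12 (1.41) and Slc7a14 (-0.62).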

How the results depend on the processing

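No paired analysis was possible because, for Gast against Int, each mouse carries 1 code and the labels give no replicate numbers. Counts are percents of the 11298 genes tested. The 7.71% higher and 5.84% lower became 0.00885% and 0.0177% (1 and 2 genes) with 200 or more reads of Gpr65, 4.12% and 3.35% with cells thinned to 100000 reads, and 3.74% and 3.0% without members that had Sst. They stayed within 1.5 times under the other settings, at 6.01% to 9.72% higher and 5.03% to 7.02% lower when 1 mouse was left out. The genes called were not all the same. Of the 1531 called in the main setting, edgeR on summed reads called 1190 in the same direction and DESeq2 1320. The Edn3 share difference passed with detection at 1 read (-35.0 points), at 100 reads (-22.6), after thinning (-19.1) and without mouse 41; leaving out 1 mouse gave -27.9 to -15.5. The Sst share difference did not pass at 1 read (18.2) or with 50 or more reads of Gpr65 (6.82), and leaving out 1 mouse gave 27.8 to 42.1. The 0.0342% (4 genes) in the difference of differences was 0.376% (44 genes) with log2(CPM + 10), 0 in limma with 3 or more cells of each kind (1053 at an unadjusted p under 0.05), and 0 to 0.863% of 11697 genes with 1 mouse left out. With 200 or more reads of Gpr65, 7 named genes changed sign without passing: Sst (-0.58), Scg2 (0.068), Oprm1 (-0.80), Il6st (-0.019), Adora2a (-0.075), Kcnb2 (0.22) and Ncald (0.13). Over 2342 refits of single named genes 86.9% kept their call, 12.7% lost it, 2 gained it and 7 changed sign; the causes were not tested. The share kept includes 66 refits with 5000 or more genes per cell, which removed no cell and could not change a call. A minimum of 3 cells per mouse removed only mouse 7, which was also left out in a refit of its own. For positive against negative cells, a minimum of 50 reads and log2(CPM + 10), both chosen after seeing the data, turned no direction. With 2 to 13 cells a mouse, low genes limit precision.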
